A study of Homo sapiens with 6 samples.

Results

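The 6 libraries of the study were read here as 3 pairs, each a replicate 2 library against the replicate 1 library of the same treatment. The pairs were chosen by the replicate numbers in the labels and use all 6 of the 6 libraries, so no measured value decided which libraries entered. Genes entered through a filter on low counts. The gene lists were chosen with earlier results of these data known. HT-1080 is an established human fibrosarcoma cell line. Its cells received DMSO as vehicle, 2 µM palbociclib, which blocks CDK4 and CDK6, or 500 nM pimasertib, which blocks MEK1 and MEK2, each for 48 h. Read counts per gene were deposited for 2 libraries of each treatment. The labels number the replicates and do not say whether the numbers stand for separate cultures, days, RNA preparations or sequencing runs, so a difference between them cannot be told apart by source. The p-values rest on how far these 6 libraries spread, and that spread may be technical.

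A cell sorts its messages while they are translated. An mRNA whose protein starts with a hydrophobic signal peptide, or spans a membrane, is carried with its ribosome to the endoplasmic reticulum (ER). Secreted, lysosomal, Golgi and cell surface proteins are made there, whereas most cytosolic, nuclear and nuclear-encoded mitochondrial proteins are made on free ribosomes. Mitochondria hold their own genome, which encodes 13 proteins of the respiratory chain and ATP synthase. Some transcripts, NEAT1 and MALAT1 among them, are retained in the nucleus and are not translated.

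Library totals ranged from 13607490 to 17500655 counts. The total of replicate 2 was 0.898 times that of replicate 1 in DMSO, 1.29 times in palbociclib and 0.922 times in pimasertib, so depth did not differ in one direction. The number of genes with reads was higher in replicate 2 of all 3 pairs. It was 18219 then 19842 in DMSO, 17735 then 21046 in palbociclib, and 20350 then 21748 in pimasertib. Its part in the results below was not tested. Of 26286 genes listed, 14839 passed the filter on low counts. Levels are in CPM, the counts scaled to a common library total with edgeR's TMM factors, and a count of 3 corresponds to 0.168 to 0.220 CPM. CPM is not divided by gene length, so levels are not compared between genes. The fibroblast markers VIM, SPARC, FN1 and MMP14 had at least 403 CPM in every library, while COL1A2, THY1 and NT5E, other fibroblast markers, stayed under 1.74 CPM. Markers of other cell types were mixed. EPCAM and CDH1 of epithelium, PTPRC of leukocytes, CDH5 of endothelium and HBB of red cells had at most 0.304 CPM. Other members of the same lists were well above that, namely KRT8 (192 to 553 CPM) and KRT18 (57.4 to 148) of the epithelial list, LCP1 (141 to 398) of the leukocyte list, and TIE1 (130.2 to 341) and ROBO4 (11.2 to 85.8) of the endothelial list. Summed levels of the leukocyte markers were lower in replicate 2 of all 3 pairs (308 then 227 CPM in DMSO, 223 then 151 in palbociclib, 415 then 264 in pimasertib). LCP1 alone made up most of these sums (300 then 216, 214 then 141, and 398 then 248 CPM in the same order). The 5 leukocyte markers tested had a median log2 difference of 0.13. Summed levels of the endothelial markers, mostly TIE1 and ROBO4, were higher in all 3 pairs (205 then 308, 335 then 419, 147 then 205). Epithelial sums (354 then 315, 381 then 471, 630.4 then 399.9) and neural sums (99.0 then 103, 226 then 285, 99.1 then 80.9) had no common direction. Of the markers of other cell types tested, LCP1, an actin bundler, was lower (-0.59 ± 0.10, edgeR adjusted p 0.00170) and TIE1, a receptor kinase, higher (0.54 ± 0.10, edgeR adjusted p 0.00393). The call of TIE1 was lost without either DMSO library (edgeR adjusted p 0.0608 to 0.0632). The part of these markers in the results below was not tested.

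With treatment as a term in the model, 1642 of 14839 genes (11.1%) were higher in replicate 2 and 1281 (8.63%) were lower by edgeR's quasi-likelihood test at an adjusted p under 0.05. The direction was the same in all 3 pairs for 2906 of these 2923 genes. Higher genes had a median log2 difference of 0.64 and lower genes one of -0.41, against -0.01 over all genes tested. A difference of at least 2-fold was reached by 334 of the higher and 10 of the lower genes. Each pair taken alone, with no test, put 153 genes at least 2-fold higher in all 3 pairs (1.03%) and 9 at least 2-fold lower in all 3 (0.0607%).

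The 3 pairs share no library. Across the 14839 genes the replicate difference of the DMSO pair had a Pearson correlation of 0.397 with that of the palbociclib pair and 0.351 with that of the pimasertib pair, and the palbociclib and pimasertib pairs correlated at 0.345. Over the 10127 genes whose mean normalized count reached 100 these values were 0.725, 0.560 and 0.473. They are a description across genes, which are not independent replicates. The DMSO and palbociclib pairs were the most alike and the pimasertib pair stood further off. Leaving out a library of the DMSO pair removed that pair and left 741 or 752 higher and 268 or 285 lower genes. Without a palbociclib library 819 or 1167 were higher and 226 or 313 lower, and without a pimasertib library 2139 or 2169 were higher and 1908 or 1985 lower. In all 6 of these fits 523 of the higher genes (3.52% of those tested) and 124 of the lower (0.836%) passed with the same direction. Unless a p is given for such a fit, each gene named below as higher or lower passed in all 6.

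Coding starts of 3 genes that were higher in replicate 2 and of 1 that was lower show a sequence feature that is counted further on. Each line gives the first 30 codons, from coding position 1 to 90, on the sense strand from GENCODE v29 (GRCh38). Capitals mark the first stretch of 19 codons whose encoded residues average at least 1.6 on the Kyte-Doolittle scale of hydropathy, called a hydrophobic segment here. RAB3B has none in its 219 residues. The segment of COL7A1 averages 1.6, just at the cutoff, and no window in its 2944 residues is higher. These genes were picked as examples.
COL7A1: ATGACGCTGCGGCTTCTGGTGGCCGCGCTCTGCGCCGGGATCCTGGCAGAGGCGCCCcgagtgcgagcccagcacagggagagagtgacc
CTSD: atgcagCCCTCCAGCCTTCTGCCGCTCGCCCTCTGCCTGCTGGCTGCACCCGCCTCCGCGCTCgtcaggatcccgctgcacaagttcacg
PDIA3: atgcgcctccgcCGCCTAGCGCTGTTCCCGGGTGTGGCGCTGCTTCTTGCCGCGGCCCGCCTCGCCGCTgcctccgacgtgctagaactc
RAB3B: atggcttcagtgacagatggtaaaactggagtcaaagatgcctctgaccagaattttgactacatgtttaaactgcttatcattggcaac

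TCN2, which encodes the secreted vitamin B12 carrier transcobalamin, had the largest difference among the protein-coding genes that the naming rule takes. It had 2.31 then 9.81 CPM in DMSO, 3.45 then 13.05 in palbociclib, and 3.98 then 10.9 in pimasertib (replicate 1, then replicate 2). Every replicate 2 library was above every replicate 1 library, and the log2 difference with its standard error (SE) was 1.8 ± 0.22 over the 3 pairs, with an edgeR adjusted p of 0.000471. COL7A1, the anchoring-fibril collagen, had 5.29 then 13.5 CPM in DMSO, 4.99 then 20.5 in palbociclib, and 33.3 then 63.5 in pimasertib, where the replicate 1 library of pimasertib exceeded the replicate 2 libraries of the other treatments. Its log2 difference was 1.38 ± 0.19, with an edgeR adjusted p of 0.000681. Others among the 12 largest were TTLL3, a tubulin glycine ligase (1.64), the homeobox factor HOXB3 (1.58), AHSA2, a relative of an HSP90 cochaperone (1.54), PRRT2, a membrane protein of synapses (1.44), SEC31B of the COPII vesicle coat (1.4) and the membrane-anchored protease TMPRSS9 (1.39). GOLGA8A and GOLGA8B, golgin genes that are near-identical copies of each other (1.41 and 1.5), are uncertain because reads could be split between copies.

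The axonemal protein gene CCDC39 (1.6) and HLA-B (1.55), a class I histocompatibility gene, completed these 12. Without the replicate 1 library of palbociclib, their edgeR adjusted p was 0.0537 and 0.0513. HLA genes also share reads with each other, which makes the values of single members uncertain.

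RAB3B, a small GTPase of regulated exocytosis, had the largest difference among lower protein-coding genes. It had 330.4 then 147 CPM in DMSO, 329 then 148 in palbociclib, and 119.6 then 73.3 in pimasertib, a log2 difference of -1.01 ± 0.11 and an edgeR adjusted p of 0.000267. In each treatment the replicate 2 library was the lower one, and the replicate 1 library of pimasertib lay below the replicate 2 libraries of DMSO and palbociclib. FOXP1, a forkhead transcription factor, had 130.2 then 77.8 CPM in DMSO, 112 then 49.9 in palbociclib, and 82.3 then 64.8 in pimasertib and a log2 difference of -0.75 ± 0.13. All 3 of its replicate 2 libraries were below all 3 of replicate 1. RGS4, which shortens G protein signalling, had 69.6 then 33.2 CPM in DMSO, 80.1 then 56.5 in palbociclib, and 67.9 then 41.8 in pimasertib, again without overlap of the replicate numbers, and a log2 difference of -0.75 ± 0.12. The Polycomb-linked gene C10orf12 (-0.92), C3orf70 (-0.89), MAP1A, which binds microtubules (-0.77), and SRFBP1, a partner of serum response factor (-0.75), were also lower.

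The other 5 of the 12 largest lower genes lost their call in some fit without 1 library. ANKRD1 (-0.76), a muscle ankyrin protein and known YAP target, had an edgeR adjusted p of 0.0657 to 0.0811 without replicate 1 or 2 of DMSO. The same range was 0.0568 to 0.196 for the zinc finger gene ZNF460 (-0.90), 0.0677 to 0.134 for BEND3, a heterochromatin repressor (-0.83), and 0.0590 to 0.0699 for DNAH11, an axonemal dynein heavy chain (-0.79), each without either DMSO library or replicate 1 of palbociclib. For APOOL (-0.78), a cristae protein of mitochondria, it was 0.0616 to 0.164 without any 1 of the DMSO and palbociclib libraries.

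**Figure D1:**
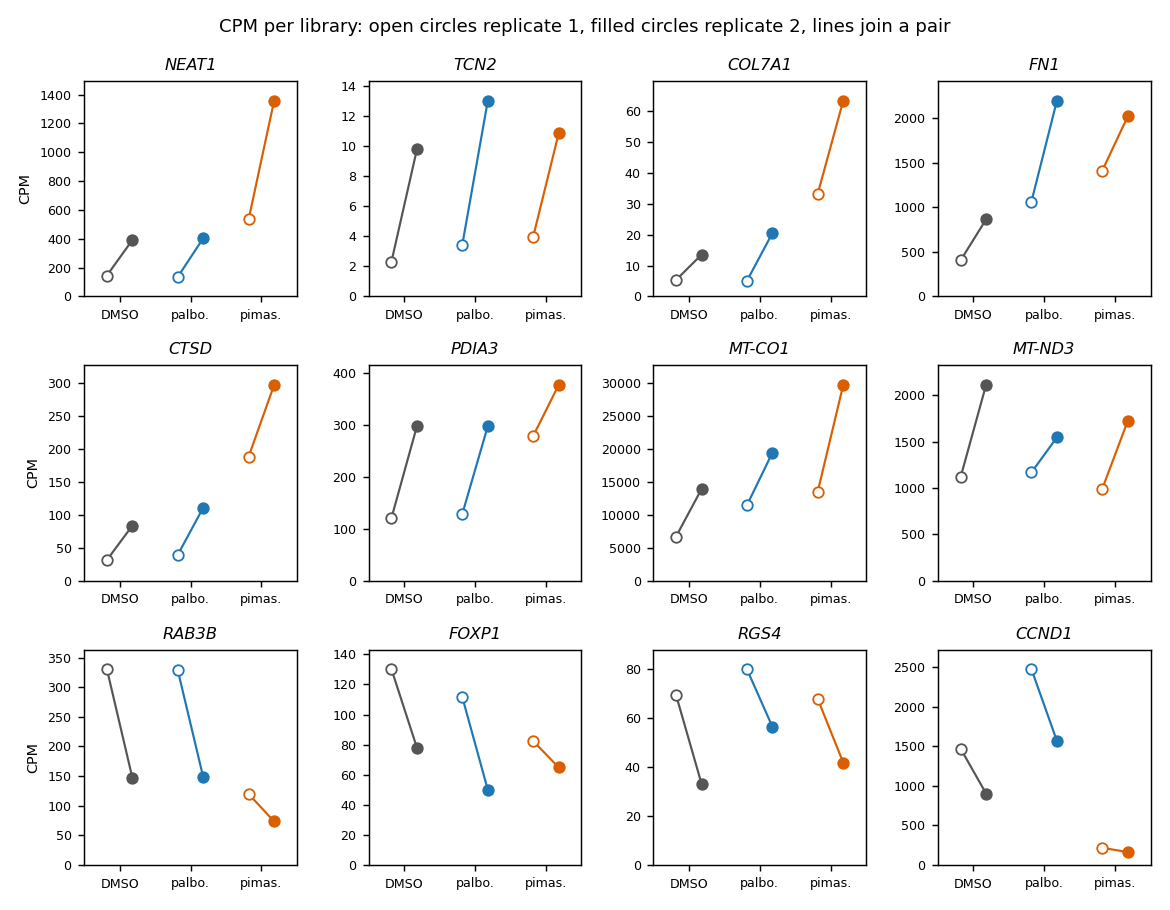
CPM (y axis, linear, from 0) of 12 genes in each of the 6 libraries, by treatment on the x axis. Open circles are replicate 1, filled circles replicate 2 and a line joins a pair. The first 8 genes were higher in replicate 2 in each pair and the last 4 lower.

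Genes of the ER and of what passes through it were higher in replicate 2. Of all genes tested 11.1% were higher. Of coding genes with a hydrophobic segment 25.6% were higher, with 43.1% in the most abundant quintile of coding genes. Of the 31 ER chaperone and unfolded protein response genes, 23 were higher (74.2%) and none lower (median log2 difference 0.52). Of the 23, 6 passed in all leave-out fits. PDIA3, a disulfide isomerase that folds glycoproteins, had 120.4 then 298 CPM in DMSO, 129 then 298 in palbociclib, and 278 then 377 in pimasertib and a log2 difference of 0.98 ± 0.15. All 3 replicate 2 libraries were above all 3 of replicate 1, although the replicate 1 library of pimasertib came close to them. P4HB, a disulfide isomerase and subunit of collagen prolyl hydroxylase, differed by 0.92 ± 0.12. HSPA5, the chief ER chaperone, had 1107 then 1867 CPM in DMSO, 762 then 1042 in palbociclib, and 1324 then 1510.1 in pimasertib and differed by 0.46 ± 0.12, with an edgeR adjusted p of 0.0143. Its call was lost without either DMSO library or without replicate 1 of palbociclib (edgeR adjusted p 0.0785 to 0.241).

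Of 29 ER translocation and signal peptide processing genes, 13 were higher (44.8%) and none lower (median 0.32), and 3 passed in all leave-out fits. This share is near the 43.1% of the most abundant coding genes with a segment. The oligosaccharyltransferase subunits DDOST (0.87 ± 0.12) and RPN2 (0.83 ± 0.13), which attach sugars to new proteins, had the largest differences in the list. SEC61A1, the pore of the translocon, did not pass (0.29 ± 0.10, edgeR adjusted p 0.0602), although its 3 pairs were all above 0. Of 37 Golgi genes 24 were higher (64.9%) and none lower (median 0.37), 8 of them in all leave-out fits. The Golgi mannosidase MAN2A2 (0.87 ± 0.11) and CHPF, which lengthens chondroitin chains (0.76 ± 0.11), were among them.

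Among 32 collagens and collagen-processing genes 25 were higher (78.1%) and none lower (median 0.70), and 17 passed in all leave-out fits. COL27A1, a fibrillar collagen, had 66.4 then 140.1 CPM in DMSO, 58.0 then 135 in palbociclib, and 48.1 then 102 in pimasertib, with every replicate 2 library above every replicate 1 library. Its log2 difference was 1.13 ± 0.10 (edgeR adjusted p 6.27e-05). COL1A1, the main chain of type I collagen, did not pass (edgeR adjusted p 0.460). It had 1.82 then 6.70 CPM in DMSO, 5.13 then 48.6 in palbociclib, and 282 then 281 in pimasertib, so its replicate 2 libraries were above replicate 1 in DMSO and palbociclib but level with it in pimasertib. Of 34 matrix glycoproteins and proteoglycans 23 were higher (67.6%) and none lower (median 0.52), 12 in all leave-out fits. FN1, fibronectin, had 403 then 864 CPM in DMSO, 1065 then 2199 in palbociclib, and 1413 then 2022 in pimasertib and differed by 0.89 ± 0.12. LTBP3, which tethers latent TGF-beta, had 117 then 337 CPM in DMSO, 149 then 426 in palbociclib, and 109 then 224 in pimasertib and differed by 1.36 ± 0.11, with an edgeR adjusted p of 3.13e-05.

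Surface proteins showed the same direction. Of 35 integrins and adhesion receptors 22 were higher (62.9%, median 0.56), 12 in all leave-out fits, and none was lower. The collagen-binding integrin chains ITGA10 (1.23 ± 0.16) and ITGA1 (1.08 ± 0.17) had the largest differences there. Of 49 receptor tyrosine kinases and cytokine receptors 19 were higher (38.8%) and none lower (median 0.32), 8 of them in all leave-out fits. This share is near the 43.1% of the most abundant coding genes with a segment. The solute carrier list counted 25 higher (61.0%) and none lower of 41 (median 0.36), but only 4 of the 25 passed in all leave-out fits. SLC1A3, a glutamate transporter, differed by 0.89 ± 0.13 and SLC20A1, a phosphate importer, by 0.66 ± 0.10.

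The lysosome list had 35 higher (72.9%) and 2 lower of 48 genes (median 0.70), and 26 of the 35 passed in all leave-out fits. CTSD, the protease cathepsin D, had 31.2 then 83.5 CPM in DMSO, 39.1 then 111 in palbociclib, and 188 then 297 in pimasertib and a log2 difference of 1.18 ± 0.15 (edgeR adjusted p 0.000592). Replicate 2 was above replicate 1 in each treatment, and both pimasertib libraries stood above all others. PSAP, the precursor of the saposins, differed by 1.16 ± 0.14, and the acid alpha-glucosidase GAA by 1.27 ± 0.15. The 2 lower members, ATP6V1H and ATP6V0D1, encode cytosol-facing subunits of the proton pump and did not pass in every leave-out fit. The largest losses of their calls had an edgeR adjusted p of 0.0616 and 0.155.

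Secreted factors of the senescence-associated and inflammatory list counted 16 higher (64.0%) and none lower of 25 (median 0.76), 11 in all leave-out fits. VEGFA, the angiogenic growth factor, had 179 then 409 CPM in DMSO, 202 then 378 in palbociclib, and 84.0 then 177 in pimasertib and differed by 1.06 ± 0.10. The matrix proteases MMP14 (1.11 ± 0.15) and MMP2 (1.08 ± 0.16) and the urokinase gene PLAU (1.03 ± 0.16) were higher too. Of 15 class I antigen presentation genes 10 were higher (66.7%) and none lower (median 0.55), 3 in all leave-out fits. B2M, the light chain of class I molecules, was among these 3 (1.17 ± 0.19). Of 24 cholesterol synthesis genes, whose enzymes sit largely in the ER membrane, 14 were higher (58.3%) and 1 lower (median 0.41). Of the 14, 3 passed in all leave-out fits. MSMO1, a sterol oxidase of the ER, differed by 0.87 ± 0.17.

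Lists of proteins made in the cytosol leaned to lower values, as coding genes without a hydrophobic segment did more widely. Of all such genes 12.6% were lower, with 33.4% in the most abundant quintile of coding genes and 18.9% in the next. Ribosome biogenesis had 20 lower (46.5%) and 1 higher of 43 (median -0.32) and translation factors 15 lower (45.5%) and 1 higher of 33 (median -0.28). Chaperonin and cytosolic heat shock genes had 12 lower (52.2%) and none higher of 23 (median -0.31). Few of these calls passed in all leave-out fits, namely none for ribosome biogenesis, 2 for translation factors and 1 for the chaperones. EIF5B, which joins the ribosomal subunits, had 449 then 274 CPM in DMSO, 419 then 251 in palbociclib, and 246 then 183 in pimasertib and differed by -0.63 ± 0.10. HSPA4, a cochaperone of HSP70, had 572 then 395 CPM in DMSO, 780.3 then 479.7 in palbociclib, and 504 then 359.8 in pimasertib and differed by -0.57 ± 0.10. The higher translation factor was EIF4A1 (1.25), which overlaps a read-through transcript in the annotation, as does the one higher ribosomal protein gene, RPL36A (1.19). Reads shared with such partners make both values uncertain.

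Proteasome genes were lower in 12 of 33 cases (36.4%) with none higher (median -0.24), 3 of them in all leave-out fits, among them the ATPase subunit PSMC3 (-0.51 ± 0.09). The spliceosome and hnRNP list had 14 lower of 45 (31.1%) and none higher (median -0.22), with no call in all leave-out fits. Both shares lie near the 33.4% of the most abundant coding genes without a segment. Cytosolic glycolysis had 3 lower (16.7%) and none higher of 18, and actin and tubulin cytoskeleton genes 7 lower (18.4%) and none higher of 38. Both medians were -0.15. By pair the medians were -0.09 in DMSO, -0.01 in palbociclib and -0.34 in pimasertib for glycolysis, and -0.04, -0.07 and -0.32 for the cytoskeleton. The ATF4 and amino acid stress list had 13 lower (37.1%) and 1 higher of 35 (median -0.26). Of these, 1 lower gene and the higher one, STC2, a secreted glycoprotein hormone (0.70 ± 0.11), passed in all leave-out fits. Cytosolic ribosomal proteins had 7 lower (8.97%) and 1 higher of 78 (median -0.15). This share is near the 8.63% of all genes and below the 33.4% of the most abundant coding genes without a segment.

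Genes of the cell cycle were lower where they differed. DNA replication had 10 lower (21.7%) and none higher of 46 (median -0.30). Mitosis had 8 lower (19.05%) and none higher of 42 (median -0.24). In each list 1 call passed in all leave-out fits. Of all coding genes without a segment 12.6% were lower, with 33.4% in the most abundant quintile and 18.9% in the next. Both lists lie between these 2 quintiles, and a difference from such genes was not tested. CLSPN, the replication checkpoint mediator claspin, had 118 then 64.5 CPM in DMSO, 20.1 then 13.7 in palbociclib, and 22.9 then 13.6 in pimasertib and differed by -0.73 ± 0.12. KIF11, the motor that separates spindle poles, had 149 then 118 CPM in DMSO, 43.5 then 25.9 in palbociclib, and 63.6 then 39.9 in pimasertib and differed by -0.58 ± 0.11. In CPM the largest gap of CLSPN was between the DMSO libraries, and it was lower in replicate 2 under both drugs as well. CCND1, cyclin D1, differed by -0.59 ± 0.10 with an edgeR adjusted p of 0.00240. MKI67, the proliferation antigen, had 1172 then 816 CPM in DMSO, 195 then 141 in palbociclib, and 225 then 222 in pimasertib. It differed by -0.34 ± 0.11, with the pimasertib libraries level, and its edgeR adjusted p of 0.0487 became 0.256 to 0.328 without any 1 of the DMSO and palbociclib libraries.

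Genes of the mitochondrial genome were higher in replicate 2. Of the 13 mitochondrially encoded protein genes 9 were higher (69.2%) and none lower (median 0.65), and 6 passed in all leave-out fits. The pairs were uneven, with a median of 0.74 in the DMSO pair, 0.17 in the palbociclib pair and 1.14 in the pimasertib pair. MT-CO1, a subunit of cytochrome oxidase, had 6682 then 13905 CPM in DMSO, 11439 then 19437 in palbociclib, and 13529.8 then 29748 in pimasertib and differed by 0.99 ± 0.12. MT-ND3, a subunit of complex I, had 1114 then 2111 CPM in DMSO, 1166 then 1545 in palbociclib, and 991 then 1724 in pimasertib and differed by 0.71 ± 0.12. The others that passed in all fits were MT-CO2 (0.86 ± 0.11), MT-CO3 (0.85 ± 0.11), MT-ATP6 (0.65 ± 0.14) and MT-ND4 (0.92 ± 0.13). MT-ND2 (0.57 ± 0.13), MT-ND4L (0.89 ± 0.21) and MT-ND5 (0.65 ± 0.19) lost their calls when a DMSO library was left out (replicate 1 only for MT-ND5), with edgeR adjusted p of 0.0532 to 0.0673, 0.168 to 0.200 and 0.0504.

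MT-ND1 (0.56 ± 0.18), MT-ND6 (0.62 ± 0.23), MT-CYB (0.52 ± 0.20) and MT-ATP8 (0.45 ± 0.57) did not pass, and edgeR gave them adjusted p of 0.0506, 0.108, 0.0968 and 0.646. MT-ATP8 overlaps MT-ATP6 and MT-ND4L overlaps MT-ND4, and MT-ND6 lies opposite other transcripts, so their counts are uncertain where strand was not used. Together the 13 genes held 3.21% of all counts in replicate 1 and 5.67% in replicate 2 of DMSO, 4.57% then 6.31% in palbociclib, and 4.25% then 8.76% in pimasertib. All 3 replicate 2 libraries were above all 3 of replicate 1, with a mean difference of 2.90 ± 1.44 percentage points (SD, n = 3 pairs). The exact sign-flip permutation test, two-sided, gave p = 0.25, the smallest that 3 pairs allow.

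Nuclear-encoded oxidative phosphorylation had 6 lower and none higher of 50 genes (median -0.08), and 12% lower is near the 8.63% of all genes tested. The pairs differed in sign (median 0.08 in the DMSO pair, -0.11 in the palbociclib pair, -0.17 in the pimasertib pair). In this list NDUFS1 of complex I was the one that passed in all leave-out fits (-0.45 ± 0.10). Mitochondrial ribosomal proteins had 11 lower (15.9%) and none higher of 69 (median -0.24), none in all leave-out fits. Of all coding genes without a segment 12.6% were lower. Mitochondrial carriers had 2 higher and 2 lower of 32 (median -0.09). Of these carriers 19 have a hydrophobic segment, and 1 of the 19 was higher and 2 lower (median -0.11). In the solute carrier list 37 genes outside the SLC25 family have a segment, and 25 of these were higher and none lower (median 0.40). A difference between the 2 sets was not tested.

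**Figure D2:**
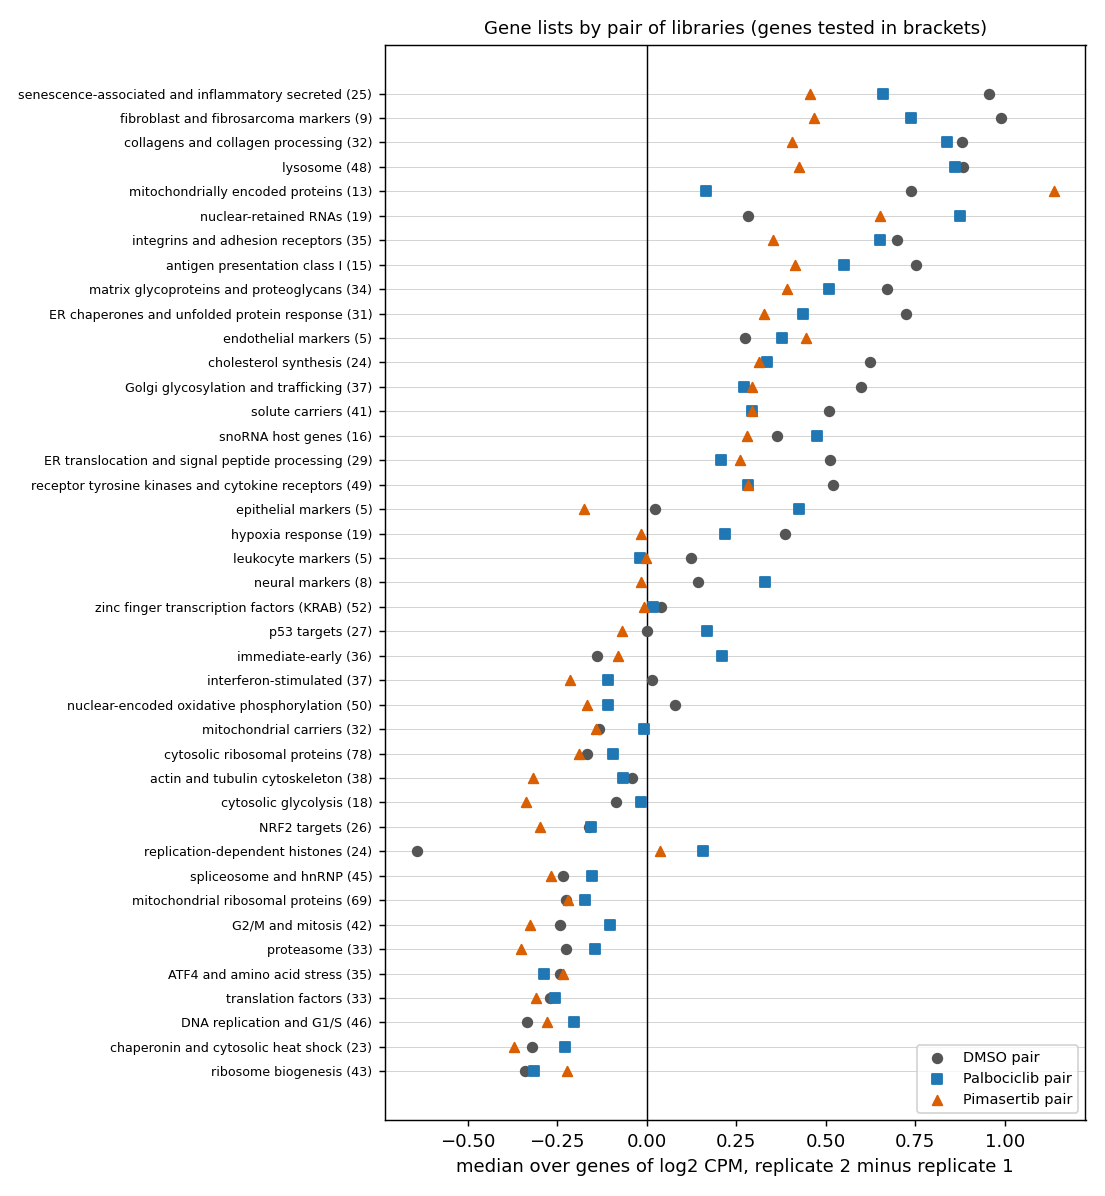
Median over the genes of each list (y axis, with the number tested in brackets) of the log2 CPM difference of replicate 2 minus replicate 1 (x axis), for the DMSO pair (circles), the palbociclib pair (squares) and the pimasertib pair (triangles). The collagen, lysosome, ER and Golgi lists lie above 0 in all 3 pairs and the ribosome biogenesis, translation factor, replication and proteasome lists below 0 in all 3.

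Several genes with transcripts known to be retained in the nucleus were higher as well. Counts per gene do not separate retained from exported transcripts. NEAT1, the scaffold RNA of paraspeckles, had 144 then 391 CPM in DMSO, 135 then 404 in palbociclib, and 534 then 1358 in pimasertib and the lowest adjusted p among the genes named here. Its log2 difference was 1.46 ± 0.10 with an edgeR adjusted p of 1.14e-05, and replicate 2 was above replicate 1 by a similar factor in each treatment. MALAT1, found in nuclear speckles, had 123 then 136 CPM in DMSO, 141 then 277 in palbociclib, and 491 then 771 in pimasertib and differed by 0.59 ± 0.13. The DMSO pair of MALAT1 hardly differed, and without replicate 1 or 2 of palbociclib its edgeR adjusted p was 0.0675 to 0.113. Of 19 genes with known nuclear-retained transcripts 11 were higher (57.9%, against 11.1% of all genes tested) and 1 lower (median 0.59). Of the 11, 7 passed in all leave-out fits. The cyclins CCNL2 (1.27 ± 0.12) and CCNL1 (1.07 ± 0.14) and the helicase gene DDX39B (1.31 ± 0.13), whose transcripts keep regulated introns, were among them.

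Host genes of small nucleolar RNAs are spliced and mostly do not encode protein. They had 5 higher (31.25%, against 11.1% of all genes tested) and none lower of 16 (median 0.33), 4 in all leave-out fits. GAS5 (0.86 ± 0.15), SNHG1 (0.92 ± 0.15), SNHG3 (0.89 ± 0.13) and SNHG12 (1.28 ± 0.25) were those 4. By annotated gene type, 38 of 539 antisense genes were higher and 1 lower (median 0.34), and 5 of 71 sense intronic genes were higher and none lower (median 0.56). Processed transcripts had 43 higher and 11 lower of 415 (median 0.29), pseudogenes 70 higher and 7 lower of 718 (median 0.15) and lincRNA genes 23 higher and 11 lower of 469 (median 0.07). The share called as higher lay below the 11.1% of all genes tested in each of these 5 types. The sources used here do not give the strand setting of the counting. Reads of antisense and intronic genes cannot be told apart from those of the genes they overlap, and reads of pseudogenes may come from their parents. Outside protein-coding genes the share of counts was 1.30% then 1.35% in the DMSO libraries, 1.38% then 1.503% in palbociclib, and 1.41% then 1.73% in pimasertib.

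The largest noncoding differences by the naming rule were C1RL-AS1 (1.58), RP11-299H22.3 (1.52), NEAT1 and GUSBP11 (1.39) on the higher side, and RP11-331F9.10 (-1.64), RNA28S5, ENSG00000260804 (-0.87) and RP5-935K16.1 (-0.78) on the lower side. RNA28S5, annotated as a copy of 28S ribosomal RNA, had 256 then 84.6 CPM in DMSO, 301 then 73.8 in palbociclib, and 88.3 then 63.3 in pimasertib and differed by -1.38 ± 0.32. Its edgeR adjusted p of 0.0448 became 0.515 to 0.518 without replicate 1 or 2 of DMSO. For RP5-935K16.1 it was 0.0682 without replicate 1 of palbociclib.

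To describe the direction across all coding genes, 12274 of the 12553 nuclear protein-coding genes tested (97.8%) were matched by Ensembl identifier to a GENCODE v29 coding sequence and scanned for hydrophobic segments. Among the 8110 genes without a segment, 4.49% were higher and 12.6% lower (median log2 difference -0.13). Among the 619 with 1 segment that starts within the first 30 residues, as signal peptides do, 38.3% were higher and 1.29% lower (median 0.40). Genes with 2 to 6 segments were higher in 28.9% and lower in 2.95% of 1593 cases (median 0.32), and genes with 7 or more in 41.6% and 0.524% of 382 (median 0.39). The 1570 genes with 1 segment elsewhere were higher in 13.4% and lower in 9.81% (median -0.00178), close to all genes tested. In all leave-out fits 90 of the 619 genes with an N-terminal segment passed as higher (14.5%), against 146 of the 8110 without a segment (1.8%).

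Genes with a segment were shifted against genes without by 0.47 in the DMSO pair, 0.27 in the palbociclib pair and 0.35 in the pimasertib pair, as the difference of the 2 medians in log2 CPM. The mean shift was 0.36 ± 0.10 (SD, n = 3 pairs), and the exact sign-flip permutation test, two-sided, gave p = 0.25, again the smallest that 3 pairs allow. Collagens show that the scan misses some secreted proteins, since 16 of the 32 in the list had no segment by this threshold and 13 of these 16 were higher. FN1, a secreted protein, had none either.

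**Figure D3:**
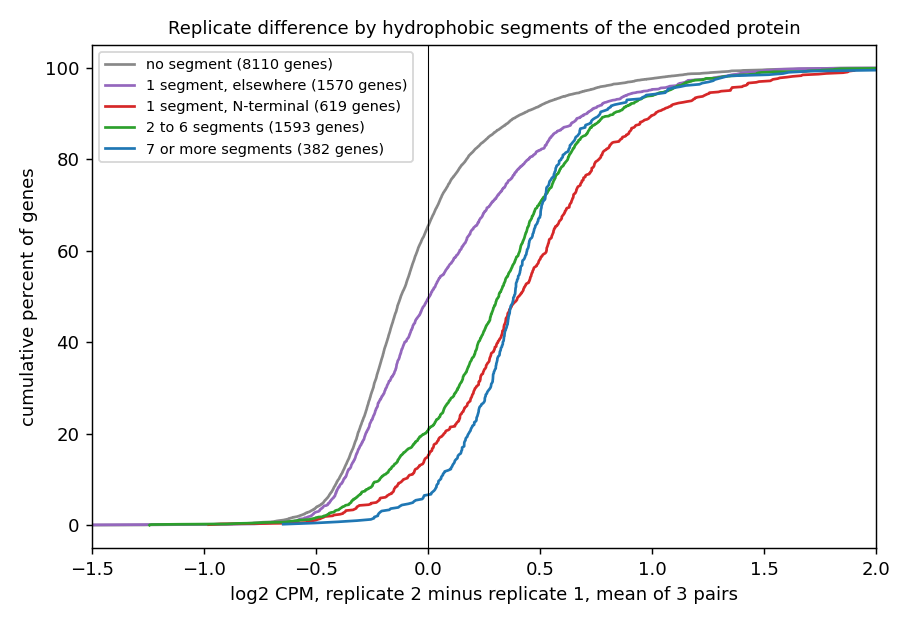
Cumulative percent of genes (y axis) by the log2 CPM difference of replicate 2 minus replicate 1, mean of 3 pairs (x axis, cut at -1.5 and 2), for 5 classes of hydrophobic segments in the encoded protein. The curve of 8110 genes without a segment lies furthest left, and the curves for an N-terminal segment, 2 to 6 and 7 or more segments cross 50% to the right of 0. The edgeR medians of these 3 classes are 0.40, 0.32 and 0.39.

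As shares of nuclear protein-coding counts, genes without a segment took 69.0% in replicate 1 and 62.1% in replicate 2 of DMSO, 67.9% then 63.9% in palbociclib, and 63.5% then 57.9% in pimasertib. Their share was lower in replicate 2 of each pair, with a mean difference of -5.52 ± 1.47 percentage points (SD, n = 3 pairs), although the values of the replicate numbers overlapped between treatments. Genes with 1 N-terminal segment took 3.83% and 5.67%, 4.37% and 5.84%, and 6.42% and 7.90% in the same order, a difference of 1.598 ± 0.21 points. Genes with 2 to 6 segments took 10.8% and 14.4%, 11.2% and 13.3%, and 13.1% and 16.01%, a difference of 2.91 ± 0.72 points. Replicate 2 was the higher library in each pair for both classes.

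**Figure D4:**
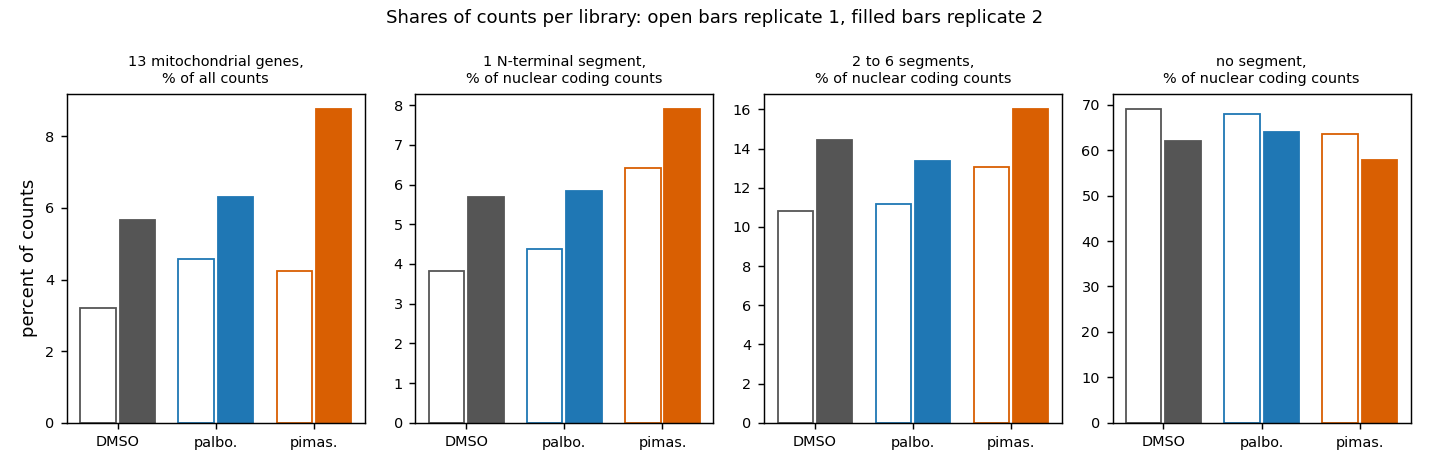
Percent of counts (y axis, linear, from 0) per library and treatment for the 13 mitochondrially encoded genes, out of all counts, and for 3 segment classes, out of nuclear protein-coding counts. Open bars are replicate 1 and filled bars replicate 2. The first 3 shares are higher in replicate 2 of every pair and the share of genes without a segment is lower.

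Other gene properties also went with the replicate difference, and their part in the segment shift was not tested beyond the strata given here. Genes were split into quintiles by the GC content of their transcript. The median log2 difference was -0.11 in the quintile with the lowest GC (31.8% to 41.2%) and 0.13 in that with the highest (58.7% to 74.1%). Within each quintile the genes with a segment had the higher median. From the lowest to the highest quintile these were 0.20, 0.16, 0.23, 0.30 and 0.40 with a segment, and -0.17, -0.19, -0.15, -0.07 and 0.00269 without. In the pimasertib pair genes of the lowest GC quintile without a segment had a median of -0.34, against -0.13 in DMSO and -0.06 in palbociclib. By the gene length in the deposited tables, the longest quintile had a median of -0.08 with 15.8% lower, and the other quintiles lay between -0.04 and -0.01. By the length of the 3 prime untranslated region, the shortest quintile had a median of 0.01 with 7.54% lower. The longest had a median of -0.12 with 15.6% lower. Quintiles of this length were not split by segment. By mean count, the quintile of the least abundant coding genes had a median of 0.27 and that of the most abundant -0.15. Within the most abundant quintile, genes with a segment had a median of 0.26 and genes without one of -0.23. By chromosome, the medians of 1 to 22 and X ran from -0.13 (18) to 0.07 (21).

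**Figure D5:**
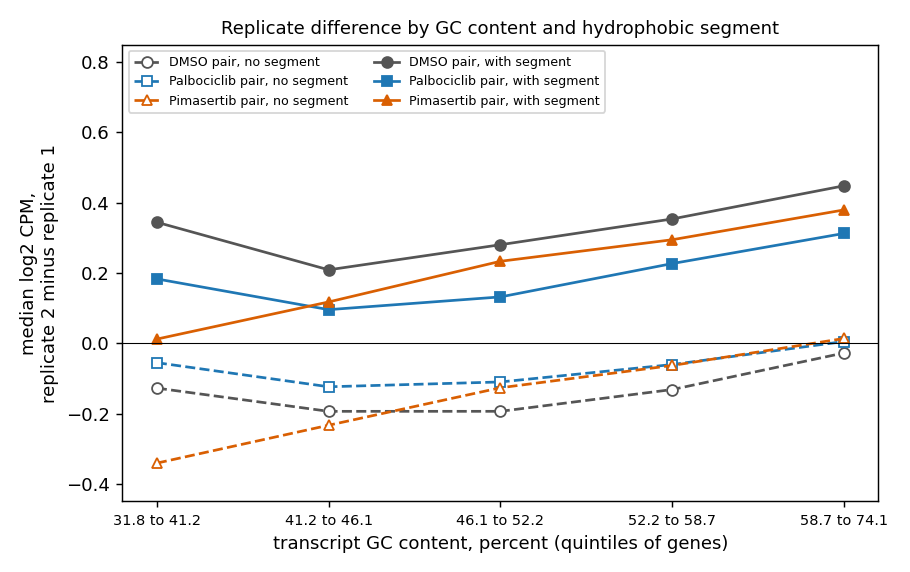
Median log2 CPM difference of replicate 2 minus replicate 1 (y axis) by quintile of transcript GC content in percent (x axis), for genes with a hydrophobic segment (solid lines, filled markers) and without one (dashed lines, open markers) in each pair. In every pair and quintile the genes with a segment lie above those without.

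Other lists had few calls or calls in both directions. Interferon-stimulated genes had 1 higher and 3 lower of 37 (median -0.03) and a median of 0.02 in the DMSO pair, -0.11 in the palbociclib pair and -0.21 in the pimasertib pair. The higher one was IFI6 (1.05), an antiviral membrane protein. KRAB zinc finger genes had 3 higher and 2 lower of 52 (median 0.07), and immediate-early genes 4 higher and none lower of 36 (median 0.01), with no call in all leave-out fits. The immediate-early share of 11.1% higher equals that of all genes tested. Targets of p53 had 5 higher (18.5%, against 11.1% of all genes) and 1 lower of 27 (median 0.05), with the cytokine GDF15 (0.95 ± 0.12) and the death receptor TNFRSF10B (0.78 ± 0.11), both made at the ER, passing in all leave-out fits. Targets of NRF2 had 2 higher and 5 lower (19.2%, against 8.63% of all genes) of 26 (median -0.18). Of coding genes without a segment 12.6% were lower, with 33.4% in the most abundant quintile. NQO1, a quinone reductase of the cytosol, had 143 then 113 CPM in DMSO, 107 then 77.01 in palbociclib, and 257 then 160.0 in pimasertib and differed by -0.50 ± 0.10. None of 24 replication-dependent histone genes passed.

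Genes often used as references did not pass. GAPDH of glycolysis had 2415 then 2304 CPM in DMSO, 2594 then 2314 in palbociclib, and 2329 then 1837 in pimasertib, a log2 difference of -0.19 ± 0.10 and an edgeR adjusted p of 0.216. ACTB, beta-actin, differed by -0.04 ± 0.11, the ribosomal protein gene RPLP0 by -0.21 ± 0.11, EEF1A1, the elongation factor that carries aminoacyl-tRNA, by -0.28 ± 0.12 and VIM, vimentin, by -0.20 ± 0.10, with edgeR adjusted p of 0.860, 0.183, 0.0979 and 0.192. GPX4, which reduces lipid peroxides, had 33.0 then 53.8 CPM in DMSO, 63.7 then 84.7 in palbociclib, and 169.8 then 165 in pimasertib. It did not pass either (0.34 ± 0.13, edgeR adjusted p 0.0764), with the DMSO and palbociclib pairs above 0 and the pimasertib pair near it. DUSP6 had 0 to 7 counts per library and was not tested.

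Taking the replicate number into the model of treatment changed how many genes were called. Without it, palbociclib differed from DMSO at 526 genes (3.54%) and pimasertib at 3376 (22.8%) by edgeR's test. With the replicate block these counts were 2953 (19.9%) and 6551 (44.1%). Of the 526 palbociclib genes 525 were called in both, and of the 3376 pimasertib genes 3374. Both comparisons share the DMSO libraries. Across genes, the palbociclib difference within replicate 1 had a Pearson correlation of 0.510 with that within replicate 2, and the pimasertib difference one of 0.808, which describes genes and not independent replicates.

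FN1 shows how the block acts on a single gene. It was higher in palbociclib than in DMSO by 1.4 on the log2 scale within replicate 1 and by 1.35 within replicate 2. The edgeR adjusted p was 0.119 without the replicate block and 2.62e-05 with it. NEAT1 was higher in pimasertib by 1.89 within replicate 1 and 1.8 within replicate 2, with edgeR adjusted p of 0.0527 and 5.79e-08 in the same order. RAB3B in palbociclib had differences of -0.01 and 0.01, and TCN2 in palbociclib 0.55 and 0.41, and neither passed with or without the block (edgeR adjusted p 0.999 and 1 for RAB3B, 0.795 and 0.245 for TCN2).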

How the data were processed

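RNA of 6 HT-1080 libraries was extracted with columns and primed with random hexamers, per the labels' protocols. Tools in the submitters' processing notes are STAR 2.5, HTSeq 0.6.1, CASAVA and DESeq2, with hg19 and GRCh37 as builds. The sources used here do not give the strand setting. The authors deposited raw read counts per gene in 1 table per drug. FPKM values, the authors' normalized signal values, their log2 fold changes and their p-values, per the file headers, were not used. The tables were joined on gene identifier: 22559 of 26286 genes were in both, DMSO counts were identical, and missing counts were set to 0.

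Counts were fitted with edgeR 4.0.16 (R 4.3.3): filterByExpr by treatment (minimum count 10, total 15), TMM, glmQLFit (robust) with terms for treatment and replicate number over all 6 libraries, and a two-sided glmQLFTest of replicate 2 against 1, adjusted by Benjamini-Hochberg over 14839 genes at 0.05. The model leaves 2 residual degrees of freedom. SE is the absolute log2 difference over the square root of F. Per-pair differences are of log2 CPM with a prior count of 2. The fit was tested on simulated counts. Alternatives were DESeq2 1.42.0 (test and size factors), limma-voom (limma 3.58.1), other filters, library totals and prior counts, no treatment term and leaving out each library, which leaves its partner without information on the replicate number. Same-numbered libraries deviated together across genes, with correlations between pairs of 0.345 to 0.397. Swapping the numbers within a pair would only flip the sign of its correlations. With so few pairs, arbitrary numbering can also give values that are all positive. This measure therefore cannot decide whether the numbers pair the libraries.

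Named genes are the 12 higher and 12 lower coding and 4 and 4 noncoding genes with the largest difference among those called whose mean normalized count reached 100 with 1 direction in all pairs, mitochondrially encoded genes, up to 4 members per list and direction, and a set of reference genes. The text gives a choice of the list members, mostly those called in every leave-out fit. The members and the 42 lists were chosen with earlier results of these data known, and the segment classes, the strata and the limits for differences between pairs were set after values had been seen. Segments were taken from GENCODE v29 translations of 1 transcript per gene, APPRIS principal first and then the longest coding sequence. GENCODE coordinates were not used, since that build is GRCh38. The coding start of 1 further gene is not reported here.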

Additional observations from a re-analysis of the deposited data

Results flagged for a closer look

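Pairs of opposite sign occurred in 10 of the 42 gene lists and in 6 of 58 single genes looked at, each pair being 1 replicate 2 library against 1 replicate 1 library. Those described here are 2 lists of at least 10 genes and 3 genes whose pairs lay at least 0.1 from 0 on both sides, a limit set after values had been seen. None of these differences between treatments was tested. Median log2 CPM differences of the 36 immediate-early genes were -0.14 in the DMSO pair and 0.21 in the palbociclib pair. Replication-dependent histone genes, 24 of which were tested, had medians of -0.64 in DMSO and 0.16 in palbociclib. Histone transcripts of this kind mostly lack poly(A) tails, and none of them passed edgeR's test. ACTB, beta-actin, differed by -0.30 in the pimasertib pair and by 0.13 in the palbociclib pair. MT-ATP8, a subunit of ATP synthase with 6.92 to 26.7 CPM, differed by -0.76 in palbociclib and by 1.86 in pimasertib. MT-CYB, of complex III, differed by -0.16 in palbociclib and by 1.08 in pimasertib. Of the other lists, nuclear-encoded oxidative phosphorylation, interferon-stimulated, hypoxia, p53 and KRAB zinc finger genes had a pair median within 0.1 of 0 on one side, and the epithelial, leukocyte and neural markers had fewer than 10 genes tested. The other 3 genes, GPX4, MT-ND1 and COL1A1, each had 1 pair just under 0 (-0.04, -0.02 and -0.00360).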

How the results depend on the processing

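The counts of 1642 higher and 1281 lower genes stayed within 1.5 times under DESeq2 and its size factors, limma-voom, other filters, mitochondrial genes left out and coding genes only (1378 to 1815 higher, 1057 to 1505 lower). Compared unpaired, with no treatment term, edgeR called 0 genes (632 at an unadjusted p under 0.05), limma-voom 0 (676) and DESeq2 9 higher and 0 lower (770). Leaving out 1 library gave 741 to 2169 higher and 226 to 1985 lower genes. With these libraries, calls between treatments rose from 526 to 2953 (palbociclib) and from 3376 to 6551 (pimasertib) with the replicate block. Genes at least 2-fold apart in all 3 pairs numbered 162, 219 with a prior count of 0.5 and 93 with one of 5. The segment shift of 0.36 was 0.26 at a hydropathy threshold of 1.4 and 0.44 at 1.9. ACTB, not called in any leave-out fit, went from -0.04 to between -0.13 and 0.10 on leaving out 1 library, and to 0.09 and 0.10 without replicate 1 and 2 of pimasertib. Of the named genes 9 lost their call under DESeq2's test, 2 under limma-voom and 3 to 74 when 1 library was left out, while all 41 list medians computed kept their sign with the other prior counts and DESeq2's size factors. The unpaired comparisons with DESeq2 and limma-voom, and the segment shift without each pair, were chosen after the data had been seen. With 2 residual degrees of freedom, small differences and genes near the filter are poorly resolved, and counting error is larger in genes of few counts.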
